A study of Mus musculus with 14 samples.

Results

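Inhibitory immune receptors of microglia were examined as a family of 10 genes chosen by symbol: Sirpa, Cd47, Cd200r1, Siglece, Pirb, Lilrb4a, Pilra, Lair1, Havcr2 and Cd300a. All 10 were found among the 14329 genes of the deposited values. All 10 also passed the filter on low values, for which a gene needed 10 reads or more in 7 or more of 14 libraries, and were tested together with the rest of the 12645 genes that passed. Bulk RNA-seq was made from CD45low CD11b+ CX3CR1+ cells sorted from the dorsal part of the lumbar spinal cord of 6-month-old mice of both sexes. The sex of each library was not among the labels used here, so the balance of sexes between groups is not known. Arthritis was induced with K/BxN serum transfer (K/BxN ST), in which serum of arthritic mice is injected at the start and again on the second day, and tissue was taken on the fifth day. Control ST mice were given serum of non-arthritic KRN/C57 mice. Groups were WT Control ST (n = 3), WT K/BxN ST (n = 4), TASTPM Control ST (n = 3) and TASTPM K/BxN ST (n = 4), where WT are C57BL/6 mice without transgenes and TASTPM are heterozygous double mutants on that background that carry human amyloid precursor protein with the Swedish mutation and a mutant human presenilin 1. Both transgenes are driven by the Thy-1 promoter, which is active in neurons, and each library was made from 2000 sorted cells.

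Most of these receptors hold tyrosine-based inhibitory motifs in their cytoplasmic tail, which, once phosphorylated, recruit phosphatases such as SHP-1 and SHIP1 and dampen signals from activating receptors that pair with the adaptor DAP12. CD200R1 instead signals through Dok adaptors, and TIM-3, the product of Havcr2, lacks such a motif. Many have a near-identical activating relative with a short tail, and such duos are called paired receptors. In microglia, the best known restraints are SIRPα, which reads the "don't eat me" protein CD47 on neurons and synapses, and CD200R1, which reads neuronal CD200.

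Libraries held between 14223015 and 20239175 reads on genes. Values are normalized counts, that is, the reads of a gene divided by 1 factor for its library. Microglia markers such as P2ry12 and Tmem119 were abundant in all 14 libraries, but 4 libraries stood apart, namely numbers 1 and 2 of WT K/BxN ST and numbers 1 and 2 of TASTPM K/BxN ST. In these 4, the summed level of 10 monocyte and 12 neutrophil markers was 534625 to 920641 normalized counts against 18146 to 27978 in the other 10, and the summed level of 10 microglia markers was 353027 to 832831 against 1026910 to 1356540. Ly6c2 reached 12898 to 29133 normalized counts in the 4, although the gate of the sort left out Ly6C+ and CCR2+ cells, and it was at 17.8 or below in the others. In WT K/BxN ST library 2 the neutrophil markers summed to 10440, within the 4066 to 11988 of the other 10, although 1 of them, Mmp8, was at 3245 there and at 60.0 or below in the other 10. Csf3r made up most of that sum in the other 10, with 3960 to 10517 normalized counts. It was at 3684 to 6811 in the 4, the highest of these in WT K/BxN ST library 2, and so was not raised in them. Summed markers of dendritic cells (798 to 7705 against 91.7 to 306 normalized counts) and of border macrophages (1249 to 3451 against 0 to 1024) were also higher in the 4 libraries. Among dendritic cell markers this held for Cd209a (440 to 6678 against 0 to 2.18), Flt3 and Clec9a. Zbtb46 (4.43 to 132 against 0.838 to 223) and Itgae (30.4 to 48.8 against 13.5 to 305) overlapped. Of the border macrophage markers, Mrc1, Lyve1, Cd163 and Folr2 overlapped and Pf4, Ms4a7 and Cbr2 did not. WT Control ST library 3 stood apart in red cell markers, which summed to 41819 normalized counts against 508 to 4571 in the other 13, and its S100a8 and S100a9 were at 969 and 1525. Without it no receptor was called, and of the 10 serum fold changes in WT those of Cd200r1 (-0.0401) and Siglece (0.12) changed sign. With bulk RNA, a smaller share of cells of a type and less RNA per cell cannot be told apart. The part of the 4 libraries rich in monocyte markers in the results below was not tested. Serum fold changes with and without them are given for the receptors and for the genes named by their p from the 4 gene lists. Other genes named from these lists have no fold change given.

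The level of each receptor per kilobase of exon is compared first, since longer transcripts give more reads. Sirpa was the highest, with a median of 6513 normalized counts per kb over the 14 libraries, and Lair1, a receptor for collagens and for the complement component C1q, followed with 2645. Havcr2, which encodes TIM-3, had 1759, Cd300a, which encodes a receptor for phosphatidylserine and phosphatidylethanolamine, had 982, and Cd47 had 649. Siglece, a receptor for sialic acid, had 526, Pirb, a receptor for MHC class I, had 270, and Cd200r1 had 203. Pilra, the inhibitory partner in a paired receptor for O-glycosylated proteins, had 170, and Lilrb4a, a leukocyte immunoglobulin-like receptor, had only 7.57 and was at 0 reads in 4 libraries. Thus the family spanned the range from the 32nd gene by median normalized count (Sirpa) to number 10615 (Lilrb4a) of the whole table. The ranges of neighbours in this order overlapped, other than those of Pilra (99.4 to 552 normalized counts per kb) and Lilrb4a (0 to 73.9). Both the order and this gap depend on the length used. Without division by length, Pilra (307 to 1704 normalized counts) and Lilrb4a (0 to 388) overlapped, and the median of Cd47 (5692) was above that of Cd300a (4833).

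**Figure D1:**
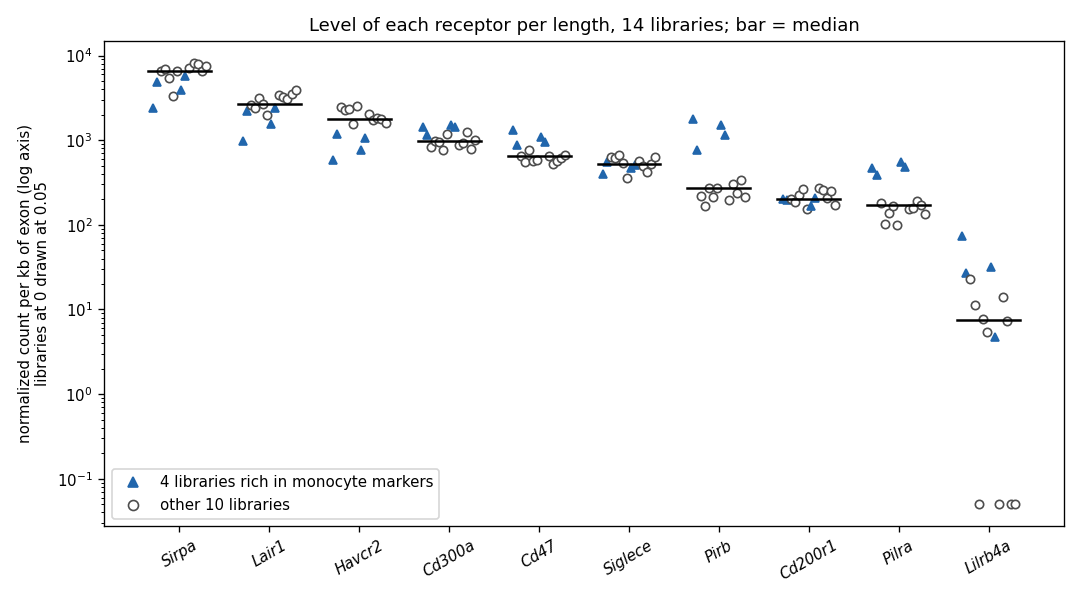
Normalized count per kb of exon (log axis) of each of the 10 receptors in each of the 14 libraries, in the order of their medians (bars), with the 4 libraries rich in monocyte markers as filled triangles and the other 10 as open circles. Sirpa, Lair1 and Havcr2 have the highest medians, Lilrb4a the lowest by far, and the triangles lie above the circles for Pirb, Pilra and Cd47 and below them for Havcr2.

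Across the study's groups, none of the 10 receptors was called by limma when K/BxN ST was compared with Control ST in WT, where 0.00791% of the tested genes were called at an adjusted p below 0.05 and an absolute log2 fold change above 1. None was called in TASTPM, where 0% of the tested genes were. In the fit of all 14 libraries an unadjusted limma p below 0.05 was not reached by any of the receptors, beside 7.13% of the tested genes in WT and 4.22% in TASTPM. Under other settings of limma it was reached by Lilrb4a in TASTPM (with a pseudocount of 10, with only the 2 groups, and without TASTPM Control ST library 2, WT Control ST library 1 or WT K/BxN ST library 3), by Lilrb4a in WT (without either of the last 2 libraries), by Pirb in WT (without WT K/BxN ST library 3) and by Pilra in TASTPM (without TASTPM K/BxN ST library 4), and the smallest adjusted p among these was 0.556. In those settings 5.80% to 8.39% of the tested genes had such a p in WT and 3.95% to 6.56% in TASTPM. edgeR called none of the receptors in either genotype, as it called 0% of the tested genes. DESeq2 called none of the receptors either, beside 1% of the tested genes in WT and 0.142% in TASTPM. Unadjusted DESeq2 p values were below 0.05 for Pirb in WT (adjusted p = 0.611) and for Pilra in TASTPM (adjusted p = 0.735), beside 7.93% of the genes in WT and 5.47% in TASTPM. For Lilrb4a in TASTPM, DESeq2 gave no adjusted p. Values of each receptor are given next, ordered by what it binds.

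SIRPα and its ligand CD47 were both transcribed by these cells. Sirpa had 55290, 45504 and 53351 normalized counts in the 3 WT mice given control serum and 27405, 40557, 49513 and 57603 in the 4 given K/BxN serum. Among TASTPM libraries it was at 37470, 23533 and 45655 after Control ST and at 16681, 33688, 46352 and 48842 after K/BxN ST. WT K/BxN ST libraries 1 and 2 lay below all WT Control ST, the other 2 were among them or above, and the groups overlapped in both genotypes. The log2 fold change of Sirpa was -0.28 (SE 0.36, exact permutation p = 0.429) in WT and -0.03 (SE 0.36, exact permutation p = 0.943) in TASTPM, and without the 4 libraries it was 0.06 and 0.47.

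Among WT libraries, Cd47 was at 4965, 5387 and 5833 normalized counts after Control ST and at 9531, 8241, 5716 and 4644 after K/BxN ST. TASTPM mice had 6623, 4973 and 5048 after Control ST and 11679, 7742, 5668 and 4840 after K/BxN ST. The 4 highest values of Cd47 were those of the 4 libraries rich in monocyte markers, and the remaining K/BxN ST libraries lay within or below the range of Control ST. For Cd47 the log2 fold change was 0.33 (SE 0.29, exact permutation p = 0.371) in WT and 0.36 (SE 0.29, exact permutation p = 0.371) in TASTPM, and -0.06 and -0.07 without the 4 libraries.

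Cd200r1 and Siglece varied least. Normalized counts of Cd200r1 were 701, 842 and 571 after Control ST and 559, 693, 920 and 873 after K/BxN ST in WT, and 754, 898 and 514 after Control ST and 671, 652, 670 and 625 after K/BxN ST in TASTPM. Those of Siglece were 1773, 2169 and 2621 after Control ST and 1949, 2126, 2385 and 2084 after K/BxN ST in WT, and 2783, 2219 and 1478 after Control ST and 1679, 2283, 2659 and 2556 after K/BxN ST in TASTPM. All groups overlapped, and the highest library exceeded the lowest by a ratio of 1.79 for Cd200r1 and 1.88 for Siglece over the 14 libraries, with the 4 libraries inside the range of the others. The log2 fold change of Cd200r1 was 0.10 (95% interval -0.45 to 0.65) in WT and -0.11 (-0.65 to 0.44) in TASTPM, and 0.36 and -0.12 without the 4 libraries. That of Siglece was -0.02 (-0.52 to 0.48) in WT and 0.11 (-0.39 to 0.61) in TASTPM, and 0.05 and 0.32 without the 4 libraries. Exact permutation p values of both receptors ranged from 0.600 to 0.886 in the serum comparisons. These intervals hold changes of up to 0.65 on the log2 scale in either direction.

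Pirb showed the widest spread of the well-expressed members. Pirb had 1099, 1547 and 965 normalized counts in the 3 WT mice given control serum and 6971, 5332, 907 and 1378 in the 4 given K/BxN serum. Among TASTPM libraries it was at 1234, 988 and 1238 after Control ST and at 8207, 3516, 1001 and 775 after K/BxN ST. Libraries 1 and 2 of each K/BxN ST group were above every other library, whereas libraries 3 and 4 were within or below the range of Control ST. In the limma fit, Pirb had a log2 fold change of 1.15 (SE 0.76, exact permutation p = 0.343) in WT and 0.92 (SE 0.76, exact permutation p = 0.400) in TASTPM, and -0.08 and -0.38 without the 4 libraries.

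Pilra followed the same libraries. Among WT libraries, Pilra was at 590, 528 and 413 normalized counts after Control ST and at 1704, 1508, 469 and 492 after K/BxN ST. TASTPM mice had 425, 522 and 307 after Control ST and 1448, 1199, 562 and 317 after K/BxN ST. Again the 4 highest values were those of the 4 libraries, and TASTPM K/BxN ST library 3 was also above all TASTPM Control ST. For Pilra the log2 fold change was 0.80 (SE 0.54, exact permutation p = 0.343) in WT and 0.87 (SE 0.54, exact permutation p = 0.229) in TASTPM, and -0.07 and 0.05 without the 4 libraries.

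Lilrb4a was low, at 0 reads in 4 libraries and at 28 to 373 reads in the other 10. Lilrb4a had 38.4, 0 and 0 normalized counts in the 3 WT mice given control serum and 168, 24.8, 0 and 73.1 in the 4 given K/BxN serum. Among TASTPM libraries it was at 0, 41.1 and 28.2 after Control ST and at 388, 140, 120 and 58.7 after K/BxN ST. All 4 TASTPM K/BxN ST libraries were above all 3 TASTPM Control ST libraries, the only case among the 10 receptors and 4 pairwise comparisons in which groups did not overlap. No receptor did so in WT, where 7.38% of the tested genes had groups that did not overlap. In TASTPM, 5.41% of the tested genes had groups that did not overlap in this comparison, and 2.67% did so with K/BxN ST higher. The log2 fold change was 3.72 (SE 1.82, adjusted p = 0.964), and the exact permutation p of 0.0286 is the smallest that 4 against 3 libraries can give. In WT it was 2.81 (SE 1.82, exact permutation p = 0.314) with overlapping groups. Without the 4 libraries the values were 2.99 in TASTPM and 1.34 in WT, and since libraries at 0 enter both, these folds depend on the 1 that was added to each value.

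Among WT libraries, Lair1 was at 26271, 30181 and 33736 normalized counts after Control ST and at 13241, 20496, 28919 and 27542 after K/BxN ST. TASTPM mice had 26949, 22970 and 16745 after Control ST and 8282, 18601, 22119 and 20690 after K/BxN ST. Libraries 1 and 2 were the lowest of WT, and in TASTPM library 1 alone lay below Control ST. Lair1 had a log2 fold change of -0.47 (SE 0.34, exact permutation p = 0.229) in WT and -0.42 (SE 0.34, exact permutation p = 0.486) in TASTPM, and -0.08 and -0.03 without the 4 libraries.

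Havcr2 had 8801, 8757 and 7820 normalized counts in the 3 WT mice given control serum and 3758, 5128, 9828 and 8402 in the 4 given K/BxN serum. Among TASTPM libraries it was at 11256, 7472 and 12360 after Control ST and at 2863, 5698, 12029 and 11105 after K/BxN ST. The 4 lowest values were those of the 4 libraries rich in monocyte markers, and K/BxN ST libraries 3 and 4 lay within or above the range of Control ST. Havcr2 had a log2 fold change of -0.42 (SE 0.44, exact permutation p = 0.371) in WT and -0.57 (SE 0.44, exact permutation p = 0.429) in TASTPM, and 0.11 and 0.19 without the 4 libraries.

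Among WT libraries, Cd300a was at 6068, 3829 and 4902 normalized counts after Control ST and at 7519, 7138, 4281 and 4540 after K/BxN ST. TASTPM mice had 4734, 3810 and 5859 after Control ST and 6969, 5740, 4113 and 4763 after K/BxN ST. All of the 4 libraries but TASTPM K/BxN ST library 2 were above the other 10. Cd300a had a log2 fold change of 0.23 (SE 0.26, exact permutation p = 0.457) in WT and 0.16 (SE 0.26, exact permutation p = 0.571) in TASTPM, and -0.14 and -0.10 without the 4 libraries.

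**Figure D2:**
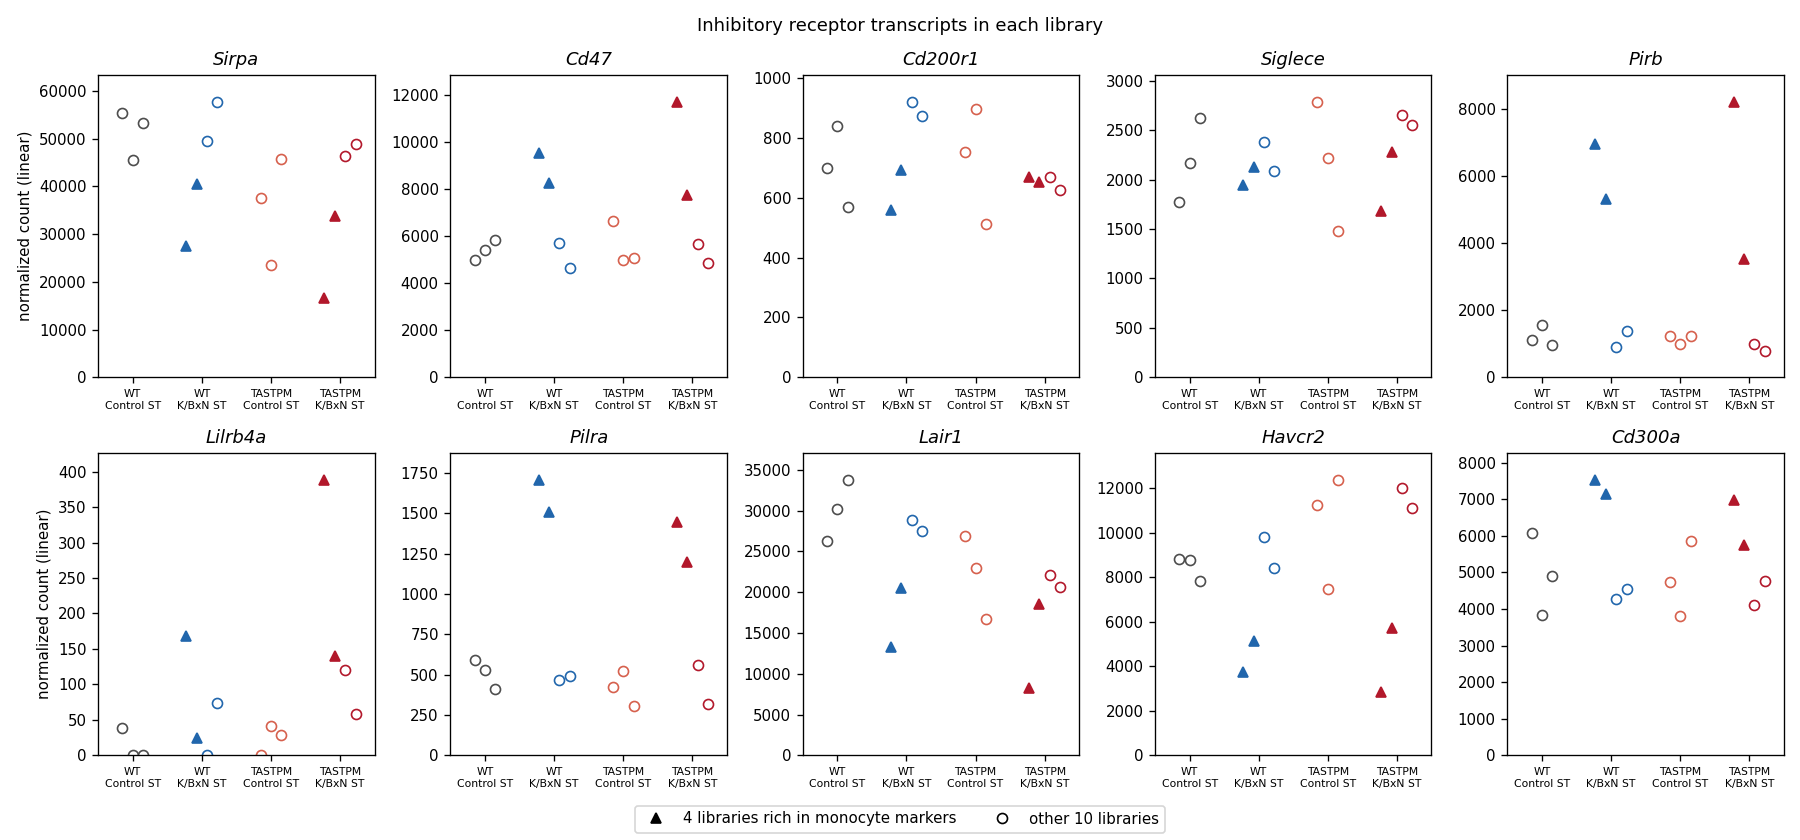
Normalized count (linear axes from 0) of each receptor in each library of the 4 groups, with the 4 libraries rich in monocyte markers as filled triangles and the other 10 as open circles. For Pirb, Pilra and Cd47 the 4 triangles are the highest points, for Havcr2 they are the lowest, and for Cd200r1 and Siglece they lie among the circles.

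Thus 3 of the 10 receptors (Cd47, Pirb and Pilra) had their 4 highest values in the 4 libraries, as did 7.63% of the tested genes, and 1 of 10 (Havcr2) had its 4 lowest values there, as did 2.51%. Among themselves the receptors moved as follows over the 14 libraries, on the log2 scale and as a description only. Pearson r was 0.93 between Pirb and Pilra, 0.92 between Pirb and Cd47 and -0.91 between Pirb and Havcr2. Over the 10 libraries without the 4, the same pairs had r of 0.27, 0.01 and -0.11. Lair1 and Havcr2 went from 0.70 to -0.64.

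**Figure D3:**
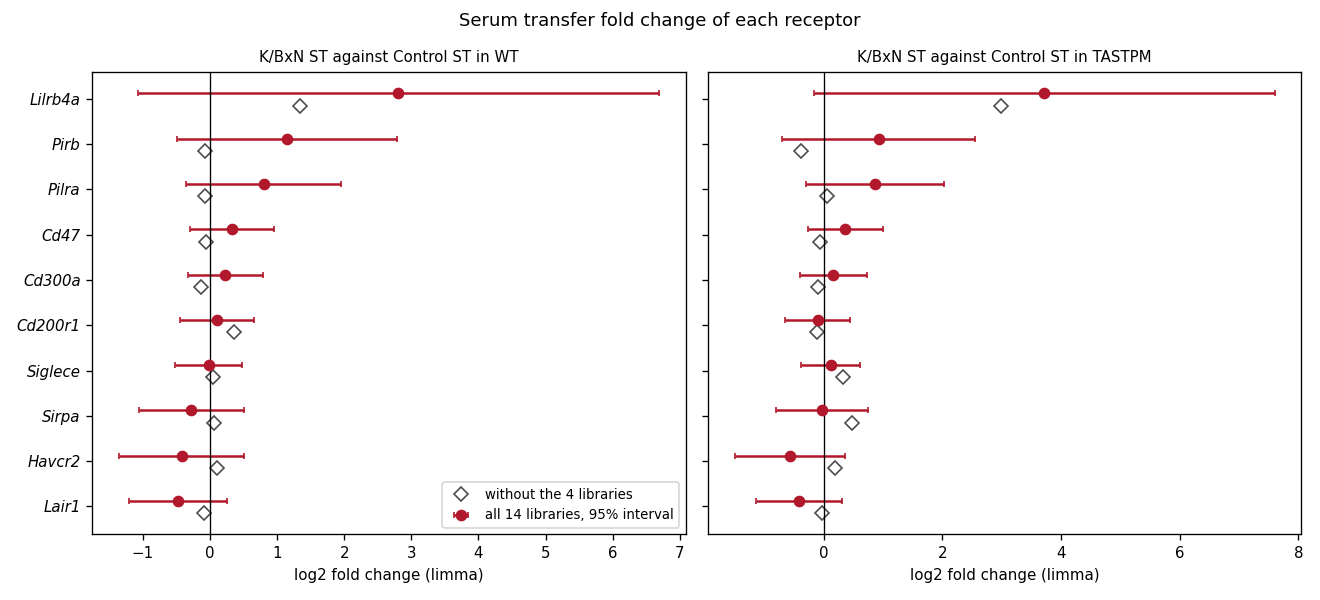
Log2 fold change of each receptor between K/BxN ST and Control ST in WT (left) and TASTPM (right), with all 14 libraries (filled circles, bars are 95% intervals of the limma fit) and without the 4 libraries rich in monocyte markers (open diamonds, no interval drawn). All intervals span 0, and the diamonds of Pirb, Cd47, Cd300a, Sirpa and Havcr2 lie on the other side of 0 from the circles in both genotypes.

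The response to serum was also compared between genotypes. No receptor had an unadjusted limma p below 0.05 for the interaction of genotype and serum, beside 3.04% of the tested genes, and the interaction ranged from -0.22 to 0.91 on the log2 scale, with 0% of the tested genes called. The difference of TASTPM from WT under Control ST ranged from -0.58 to 1.65 (none called and none with an unadjusted limma p below 0.05, beside 0% and 5.57% of the tested genes). Under K/BxN ST it ranged from -0.40 to 2.56 (none and none, beside 0% and 1.91%). Leaving Lilrb4a aside, these ranges end at 0.25, 0.26 and 0.11. edgeR called none of the receptors in these 3 comparisons, beside 0% of the tested genes in each, and DESeq2 called none of them, beside 0.0949%, 0.324% and 0%. Groups overlapped for all 10 receptors in both comparisons of genotypes, in which 9.69% and 1.83% of the tested genes did not overlap.

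Sirpa and Lair1 lay lowest relative to WT in TASTPM mice under Control ST. The log2 difference was -0.58 (SE 0.39) for Sirpa and -0.46 (SE 0.37) for Lair1, with 2 of 3 TASTPM libraries below all WT libraries for each, and an exact permutation p of 0.200 for both, where 3 against 3 libraries cannot give less than 0.100. Leaving out 1 library moved the difference between -0.79 and -0.31 for Sirpa and between -0.61 and -0.27 for Lair1. In the fit without the 4 libraries, which holds the same Control ST libraries, the unadjusted limma p was 0.0182 for Sirpa and 0.0236 for Lair1 (adjusted p = 0.768 for both), and 6.1% of the tested genes had a p below 0.05 there. In a fit of only these 2 groups the p of Sirpa was 0.0376 (limma, adjusted p = 0.958), beside 4.82% of the tested genes with a p below 0.05. The order of the 4 groups by median was the same for Cd47, Pilra and Cd300a and differed between the other receptors. Every pair of neighbouring groups in that order overlapped, and the share of all tested genes in which they do was not counted.

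The promoters are shown for the 4 receptors whose extreme values were those of the 4 libraries, to set the ligand CD47, which most cell types express, beside 3 myeloid receptors. RefSeq entries on GRCm38.p6 were matched for 7 of the 10 receptors, not for Sirpa, Cd200r1 or Lilrb4a, and the 250 bases before the start were searched on both strands for the letters GAGGAA, the core that the myeloid transcription factor PU.1 binds. These letters, in capitals below also where they read TTCCTC on the other strand, were in 6 of the 7, with 3 matches each in Pirb and Siglece and 1 each in Pilra, Lair1, Havcr2 and Cd300a. They were in 23.2% of 32851 promoter entries of the same length.
Pirb, chr7:3720383-3720632, minus strand: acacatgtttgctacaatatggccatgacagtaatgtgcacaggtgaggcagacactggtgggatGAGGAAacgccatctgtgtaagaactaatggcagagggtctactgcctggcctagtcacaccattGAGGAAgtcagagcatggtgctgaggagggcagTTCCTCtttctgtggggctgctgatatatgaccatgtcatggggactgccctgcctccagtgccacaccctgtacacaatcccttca
Pilra, chr5:137836279-137836528, minus strand: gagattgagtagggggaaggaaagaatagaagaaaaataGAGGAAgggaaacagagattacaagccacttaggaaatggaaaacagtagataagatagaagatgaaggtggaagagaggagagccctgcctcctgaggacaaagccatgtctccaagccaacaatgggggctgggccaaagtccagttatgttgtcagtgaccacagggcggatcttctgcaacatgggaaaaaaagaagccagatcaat
Havcr2, chr11:46454681-46454930, plus strand: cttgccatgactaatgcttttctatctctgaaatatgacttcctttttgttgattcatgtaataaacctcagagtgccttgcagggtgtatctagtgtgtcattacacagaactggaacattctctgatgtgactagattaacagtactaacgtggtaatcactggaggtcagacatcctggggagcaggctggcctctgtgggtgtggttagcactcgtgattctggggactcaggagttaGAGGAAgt
Cd47, chr16:49855404-49855653, plus strand: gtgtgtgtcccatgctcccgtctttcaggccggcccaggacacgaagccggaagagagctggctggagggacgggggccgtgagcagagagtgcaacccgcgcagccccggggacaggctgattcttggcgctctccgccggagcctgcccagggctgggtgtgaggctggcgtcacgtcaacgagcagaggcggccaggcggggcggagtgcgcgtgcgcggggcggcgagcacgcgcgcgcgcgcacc

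Neither of the 2 entries for Cd47 held GAGGAA, and each held the GC box GGGCGG in 2 places, which is in 32.7% of all entries and in 1 other of the 7 matched receptors (Pilra). The interferon-stimulated response element was found once in Pilra, outside the capitals, in no other of the 7, and in 2.98% of all entries. The letters TTGCNNAA of C/EBP factors were found once each in Pilra, Lair1 and Cd300a and in 9.56% of all entries, and the TATA box TATAAA was in none of the 7 and in 12.4% of all entries. A match is a description of these letters and not of a bound site.

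Members of paired families share sequence with their relatives, so the share of 100-base stretches of each receptor's transcripts that also occur in another gene was counted in the GRCm39 annotation. It was 0% for Sirpa and Havcr2, 0.811% for Cd300a, 1.53% for Cd47, 3.18% for Lair1 and 3.6% for Cd200r1, so reads of these belong to 1 gene almost throughout. It was 21.8% for Pirb, on chromosome 7 from 3714408 to 3723416 on the minus strand, with identical stretches of up to 523 bases in Pira12 and 477 in Pira2. It was 12% for Pilra, which overlaps Zcwpw1 on the opposite strand and shares 121 bases with Pilrb1, and 34.6% for Lilrb4a, which shares a stretch of 1441 bases with Gm49339 and one of 295 with Lilrb4b. Gm49339 overlaps the exons of Lilrb4a on the same strand over 1846 bases, so that counting by strand would not separate these. For Siglece it was 34.5%, because its exons overlap those of Ceacam18 on the opposite strand over 1639 bases. Whether the authors counted by strand is not given in the sources used here, and without strand the reads of such partners cannot be told apart. Ceacam18 itself was at 0 to 47.8 normalized counts in the 14 libraries and Zcwpw1 at 0.937 to 271. Values of Lilrb4a, Siglece, Pirb and Pilra are uncertain to this extent.

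Activating relatives of the family and their adaptors were taken next. Of 25 listed, 22 were analysed, 14 passed the filter and were tested and the rest failed it, and limma called none in WT or TASTPM, while Pira1 and Cd300lb in WT and Pira13 in TASTPM had an unadjusted p below 0.05, all higher after K/BxN ST, beside 7.13% of all tested genes in WT and 4.22% in TASTPM. The median log2 fold change of the 14 was 1.22 in WT and 0.35 in TASTPM, beside 0.06 and 0.01 over all tested genes, and without the 4 libraries it was 0.00768 and -0.15, beside 0.0398 and -0.00551. In WT, Pira1, an activating relative of Pirb, had 4.78 (SE 1.74, adjusted p = 0.642) and Cd300lb 5.02 (SE 2.1, adjusted p = 0.684), and without the 4 libraries they had 2.72 and 1.64. Pira1 was at 0.838 to 0.955 normalized counts in WT Control ST, and Cd300lb at 1.87, 0.838 and 69.7, so these folds depend on the 1 that was added to each value. In TASTPM, Pira13 had 3.67 (SE 1.60, adjusted p = 0.964) and Cd300c2 -0.44 (SE 0.22, adjusted p = 0.964), and 2.92 and -0.25 without the 4. Pira13 was at 0 to 10.4 normalized counts in TASTPM Control ST, so the same holds for it. Leaving out 1 library gave TASTPM fold changes of 2.68 to 4.51 for Pira13 and -0.57 to -0.25 for Cd300c2.

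Some of these relatives were all but absent outside the 4 libraries. Sirpb1c, an activating relative of Sirpa, reached 3990 and 1235 normalized counts in libraries 1 and 2 of TASTPM K/BxN ST and 2581 and 2420 in libraries 1 and 2 of WT K/BxN ST, but no more than 3 reads in any of the other 10 libraries, in which Sirpa had 23533 to 57603. Lilra6, an activating relative of Pirb, likewise had 495 to 1252 in the 4 libraries and at most 3 reads in each of the other 10, in which Pirb had 775 to 1547. Pilrb1, the activating partner of Pilra, had 279 to 450 in the 4 and 0 to 55.2 in the other 10, in which Pilra had 307 to 590. Sirpb1c and Lilra6 failed the filter on low values and were not tested, and these relatives were chosen after their values were seen. In all, 14 of the 22 relatives and adaptors (63.6%) had their 4 highest values in the 4 libraries, beside 8.56% of the 14329 genes.

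**Figure D4:**
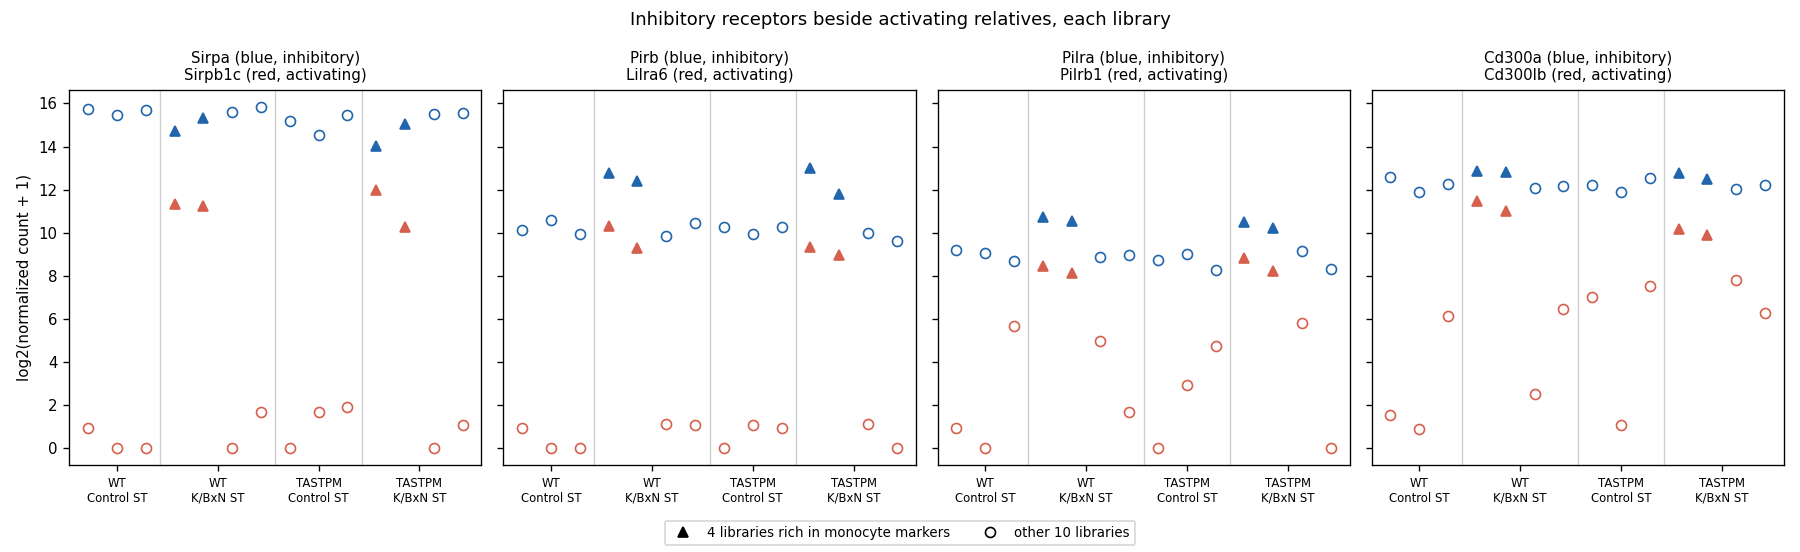
log2(normalized count + 1) of 4 inhibitory receptors (blue) and an activating relative of each (red) in each library, with the 4 libraries rich in monocyte markers as filled triangles and the others as open circles. Values are not per length, so each gene is to be read across libraries: the red triangles of Sirpb1c and Lilra6 lie far above the red circles, which are at or near 0, while the blue points are high in every library.

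Adaptors differed in level. Tyrobp, which encodes DAP12 and, like Fcer1g, was named after its values were seen, had 28688 to 33571 normalized counts in the 4 libraries and 18089 to 36720 in the other 10, and Fcer1g had 26469 to 31798 and 20800 to 33428, so both overlapped. Hcst, which encodes the adaptor DAP10, was lower, with its 4 highest values in the 4 libraries, 346 to 488 against 135 to 293, and was also named after its values were seen.

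Of 29 other receptors listed, most of them inhibitory, 24 were analysed and 23 were tested. None was called by limma, beside 0.00791% of all tested genes in WT and 0% in TASTPM. None had an unadjusted limma p below 0.05, beside 7.13% in WT and 4.22% in TASTPM. The median log2 fold change of the 23 was 0.08 in WT and 0.03 in TASTPM, beside 0.06 and 0.01 over all tested genes. Without the 4 libraries it was 0.10 and -0.0936, beside 0.0398 and -0.00551. The smallest p in WT were those of Cd300lf (1.94, SE 1.07, adjusted p = 0.732) and Siglech, a microglia marker whose product pairs with DAP12 and holds no inhibitory motif (-0.47, SE 0.35, adjusted p = 0.775), and without the 4 libraries these had 0.60 and -0.13. In TASTPM they were those of Siglec1, which also lacks such a motif (4.05, SE 1.93, adjusted p = 0.964, at 0 to 2.22 normalized counts in TASTPM Control ST), and the tetraspanin Cd37 (-0.43, SE 0.27, adjusted p = 0.964), with 2.81 and -0.15 without the 4. Of the 24, 6 had their 4 highest values in the 4 libraries, beside 8.56% of all genes, and 2 had their 4 lowest, beside 2.22%. The latter were Siglech, with 10698 to 23929 against 29416 to 36450 normalized counts, and Vsir, which encodes the checkpoint protein VISTA, with 22454 to 39811 against 44431 to 59343. The 6 were Clec4a1, Clec12a, Ceacam1, Milr1, Btla and Cd244a. These and Vsir were named after their values were seen.

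All 17 genes of inhibitory signalling were tested, and limma called none. The median log2 fold change was 0.23 in WT and 0.06 in TASTPM, beside 0.06 and 0.01 over all tested genes. Without the 4 libraries it was 0.0683 and 0.0843, beside 0.0398 and -0.00551. Dok3, an adaptor that restrains signals through DAP12 and Toll-like receptors, was the single gene of the list with an unadjusted limma p below 0.05 in WT (1.08, SE 0.32, adjusted p = 0.538, and 0.53 without the 4 libraries), beside 7.13% of all tested genes. It was at 902, 702 and 638 normalized counts after Control ST and at 2657, 1940, 1138 and 1008 after K/BxN ST. All 4 K/BxN ST libraries were above the 3 Control ST libraries, with the 2 libraries rich in monocyte markers the highest, and 7.38% of the tested genes had groups that did not overlap in this comparison. In TASTPM it was at 909, 1732 and 1495 after Control ST and at 2185, 1820, 1681 and 1611 after K/BxN ST (0.45, SE 0.32, adjusted p = 0.964), with overlap, and the fold change was 0.31 without the 4 and 0.17 to 0.64 without 1 library. Dok1 had the next smallest p in WT (-0.63, SE 0.30, adjusted p = 0.698), with -0.87 without the 4 libraries. Ptpn6, which encodes SHP-1, had the smallest in TASTPM (0.38, SE 0.23, adjusted p = 0.964), and Fgr the next (2.33, SE 1.46, adjusted p = 0.964), and without the 4 libraries they had 0.15 and 0.0843. Leaving out 1 library gave 0.22 to 0.51 for Ptpn6 and 1.36 to 3.10 for Fgr. Of the 17, 4 (23.5%) had their 4 highest values in the 4 libraries, beside 8.56% of all genes, namely Ptpn11, Dok2, Dok3 and Fgr, the last with 2085 to 5322 against 17.6 to 652 normalized counts. Conversely 1 of the 17 (5.88%) had its 4 lowest values there, beside 2.22% of all genes. Inpp5d, which encodes SHIP1, was that gene, with 5780 to 7345 against 8957 to 14893 normalized counts. Inpp5d, Ptpn11 and Dok2 were named after their values were seen.

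Of 16 listed ligands, 12 were analysed and 10 were tested, and limma called none. The median log2 fold change was 0.02 in WT and 0.04 in TASTPM, beside 0.06 and 0.01 over all tested genes. Without the 4 libraries it was -0.10 and -0.11, beside 0.0398 and -0.00551. Thbs1, which encodes a secreted ligand of CD47, had 3.40 (SE 1.63, adjusted p = 0.698) in WT, and C1qb, a chain of the LAIR1 ligand C1q, had -0.50 (SE 0.37, adjusted p = 0.778), with 2.40 and -0.12 without the 4 libraries. Thbs1 was at 226, 0 and 222 normalized counts in WT Control ST, and without the library at 0 its log2 fold change was 0.80. In TASTPM, B2m, the light chain of the MHC class I molecules that PIR-B binds, had -0.58 (SE 0.25, adjusted p = 0.964), the single ligand with an unadjusted p below 0.05, beside 4.22% of all tested genes, and H2-D1, a heavy chain, had 0.50 (SE 0.30, adjusted p = 0.964). Without the 4 libraries B2m had -0.66 and H2-D1 0.0942. Leaving out 1 library gave -0.80 to -0.39 for B2m and 0.29 to 0.69 for H2-D1. Of the 12 ligands, 3 (25%) had their 4 highest values in the 4 libraries, beside 8.56% of all genes. These were H2-D1, with 56026 to 79180 against 27915 to 47294 normalized counts, Thbs1, with 538 to 3628 against 0 to 318, and Fn1, which encodes fibronectin, with 2580 to 9931 against 0.838 to 85.5. Fn1 was not tested and was named after its values were seen.

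Genes most like each receptor were sought over the 14 libraries by Pearson r of log2(normalized count + 1) among the tested genes, as a description in which all points share the same libraries. Havcr2 was most like Mertk (r = 0.98), a receptor tyrosine kinase that clears dying cells, and 1700017B05Rik (0.97), and over the 10 libraries without the 4, r was 0.84 and 0.73. Lair1 was most like the microglia markers P2ry12 (0.97) and Gpr34 (0.96), with 0.88 and 0.84 over the 10. Sirpa was most like Clstn1 (0.98) and Slc7a8 (0.97), and kept r of 0.95 and 0.95 over the 10.

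Pirb was most like Actr3 (0.97), a subunit of the actin nucleating Arp2/3 complex, and Ube2l3 (0.97), but r over the 10 was 0.42 and 0.40. Cd47 was most like Tpm4 (0.96) and Prdx1 (0.96), with 0.70 and 0.60 over the 10, and Pilra was most like Ndufb1 (0.97) and Sp100 (0.97), with 0.90 and 0.86. Cd300a was most like Bbln (0.93) and Pira2 (0.93), with 0.86 and 0.80. Lilrb4a was most like Tmub1 (0.91) and Atp11b (0.90), and Cd200r1 was most like Dleu2 (0.83) and Gm16062 (0.83).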

How the data were processed

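Libraries were made by the authors from 2000 cells each with SMART-Seq and sequenced in pairs. Reads were aligned with HISAT2 2.1 to GRCm39, counted per gene with featureCounts 1.5.2 on Ensembl annotation 104 and scaled with DESeq2. The values that the authors deposited are normalized counts, a signal in which reads are divided by 1 factor per library. Reads could be recovered as whole numbers for 100% of the values (tolerance 0.05), and edgeR and DESeq2 were run on those. Libraries held 14223015 to 20239175 reads, and 3 reads were taken as the limit of detection, which covers counting error only.

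Groups follow the name above each column. Library numbers of TASTPM K/BxN ST are those of the labels. Among the other 10 columns, the numbers do not match those of the sample titles throughout: 1 headed TASTPM Control bears a number that the titles give to WT K/BxN ST, 1 headed WT K/BxN ST bears a number of WT Control, and 2 bear numbers that no title has. Their groups rest on the header alone, and their libraries are numbered in the order of the deposited values. Separate mice are stated as replicates by the study, not by the labels, so p values measure the spread between these libraries. All 14 libraries entered 1 limma fit (3.58.1, R 4.3.3, trended) of log2(normalized count + 1) over 12645 genes (10 reads or more in 7 libraries or more), with Benjamini-Hochberg adjustment. Fold changes are differences of mean log2(normalized count + 1), in which the added 1 makes the folds of low genes smaller and a library at 0 can make them larger than the ratio of group means. edgeR 4.0.16 and DESeq2 1.42.0 were alternatives. Exact permutation tests were two-sided. The fit was tested on simulated data. Named were the 10 receptors, of each list the called genes or otherwise the 2 with the smallest p per serum comparison, and the 2 genes most like each receptor (those of Siglece are not reported here), and others are said to be chosen after their values were seen. The members and lists were chosen with earlier results of these data known. Positions are from GENCODE vM39 on GRCm39, and promoters are from RefSeq on GRCm38.p6.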

Additional observations from a re-analysis of the deposited data

How the results depend on the processing

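No paired analysis was possible because no replicate number is shared between groups. No receptor was called in any comparison under any alternative. Of the 20 serum fold changes of the 10 receptors, all kept their direction with TMM and with pseudocounts of 0.5 and 10, while no filter, no trend and a fit of only the groups compared leave these folds as they are by construction. Leaving out the 4 libraries rich in monocyte markers, an alternative chosen after seeing the data, reversed 12 of 20. In WT these were Havcr2 (0.11), Siglece (0.0454), Cd300a (-0.14), Sirpa (0.0608), Pilra (-0.0705), Cd47 (-0.0633) and Pirb (-0.0775), and in TASTPM Havcr2 (0.19), Cd300a (-0.0951), Sirpa (0.47), Cd47 (-0.0701) and Pirb (-0.38). A covariate for monocyte and neutrophil markers also reversed 12, in WT Havcr2 (0.20), Siglece (0.13), Cd300a (-0.0638), Sirpa (0.13) and Cd47 (-0.0384), and in TASTPM Havcr2 (0.15), Cd200r1 (0.0514), Cd300a (-0.18), Sirpa (0.44), Cd47 (-0.0647), Lair1 (0.0429) and Pirb (-0.40). Scaling by library totals reversed Siglece in WT (0.0370), and Sirpa in TASTPM was 0.0325 with edgeR, 0.0312 with DESeq2 and 0.0305 with DESeq2 and no filter. Leaving out 1 library reversed Cd200r1 (range -0.0401 to 0.24 in WT, -0.33 to 0.0703 in TASTPM), Siglece (-0.16 to 0.12 and -0.14 to 0.32) and Sirpa in TASTPM (-0.30 to 0.31), and the other folds kept their direction but moved in size, in TASTPM for Pirb (0.28 to 1.42), Havcr2 (-0.84 to -0.15), Lair1 (-0.61 to -0.0947), Cd47 (0.12 to 0.54), Cd300a (0.00674 to 0.32), Pilra (0.55 to 1.28) and Lilrb4a (2.01 to 4.71), and in WT for Pirb (0.67 to 1.65), Havcr2 (-0.63 to -0.17), Lair1 (-0.61 to -0.24), Sirpa (-0.43 to -0.0715), Cd47 (0.16 to 0.51), Cd300a (0.0593 to 0.39), Pilra (0.48 to 1.1) and Lilrb4a (1.87 to 4.58).

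Counts of called genes over the whole table depended on the tool. In WT, limma called 1 gene, and 0 with a pseudocount of 10, with only the 2 groups, with edgeR, with the covariate and without the 4 libraries, 2 with no trend, 127 with DESeq2, 275 with DESeq2 and no filter, and 0 to 17 without 1 library (14 without WT Control ST library 2, 17 without library 3). In TASTPM, it called 0, DESeq2 18 or 88, and 0 to 1 without 1 library. For the interaction it called 0, DESeq2 12 or 36, and 0 to 3. For TASTPM against WT under Control ST it called 0, DESeq2 41 or 84, 1 with the covariate and without the 4 libraries, and 0 to 11 (9 and 11 without the same WT Control ST libraries). Under K/BxN ST it called 0 throughout. The cause was not tested. With 3 or 4 libraries per group, changes in Lilrb4a, at 0 reads in 4 libraries, cannot be measured closely.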
